A study of Drosophila melanogaster with 6 samples.

Results

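The vacuolar ATPase (V-ATPase) genes were examined in sorted wing pouch cells of Drosophila melanogaster larvae, with and without regeneration. They were taken as every gene of the expression table whose symbol begins with Vha, which gave 19 of 14239 genes. Both groups carried nub-GFP, an insertion that makes GFP under the control of the wing gene nubbin, together with rn-Gal4 and the temperature-sensitive repressor GAL80ts. The 3 Ablated replicates had the genotype nub-GFP/+; rn-Gal4, GAL80ts, UAS-rpr/+, and the 3 mock-ablated Control replicates had nub-GFP/+; rn-Gal4, GAL80ts/+ and lacked UAS-rpr. All larvae were reared at 18 °C and shifted to 30 °C for 24 h, which let rn-Gal4, active in most of the wing pouch, switch on the cell death gene rpr in the Ablated group. GFP-labeled cells were sorted after 24 h of recovery, when the Ablated discs hold a regeneration blastema. Each replicate pooled many discs, more for an Ablated than for a Control replicate. The paper describes pooling over several days of dissection.

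The V-ATPase is a rotary proton pump. Its peripheral V1 sector (subunits A to H) splits ATP and turns a central stalk, and in its membrane sector Vo (subunits a, c, c'', d and e) the ring of c and c'' turns with the stalk past the fixed subunit a, which moves protons across the membrane. The pump acidifies endosomes, lysosomes and secretory compartments in nearly all cells, and in imaginal discs it is known to be needed for endosomal steps of Notch and Wnt signaling. In flies several subunits have more than 1 gene, with 1 gene used widely and others restricted to tissues such as the testis or the nervous system.

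Each gene has 1 FPKM value per group (fragments scaled by transcript length and library size), which the authors' software combined from the 3 replicates. No spread between replicates is therefore given, the differences have no replicate check, and none was tested. A gene was counted as expressed when the mean of its 2 FPKM values was at least 1, and 8402 genes of the table met this with a value above 0 in both groups. The median log2 ratio of Ablated to Control FPKM over these genes was -0.04. Depth per gene is unknown. A 0 in the table does not show absence, because Ef1alpha48D and RpL15, which every cell uses, are listed at 0 in both groups.

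Wing pouch markers were present in both groups but lower in the Ablated group. The 4 markers nub, rn, vg and Dll ranged from 21.4 to 89.9 FPKM in the Control group and from 9.47 to 51.8 FPKM in the Ablated group. Their summed level was 213 and 122 FPKM. All 4 were lower by at least 1.5-fold, against 9.32% of all expressed genes. The 3 notum markers summed to 11.3 and 24.6 FPKM, the 3 myoblast markers to 1.24 and 18.6 FPKM, the hinge and peripodial markers zfh2 and Ubx to 23.0 and 67.1 FPKM, and the 3 tracheal markers to 75.3 and 76.7 FPKM. Within the tracheal list the genes differed in both directions, with trh at 21.8 and 3.64 FPKM, btl at 1.07 and 3.33 FPKM and vvl at 52.4 and 69.7 FPKM. The 3 hemocyte markers summed to 1.08 and 1.67 FPKM, with Hml under 0.1 FPKM in both groups and nimC1 at 0 in the Control group. No defining marker was at 0 in both groups. The part of these shifts in the values below was not tested, and in bulk values fewer cells of a type and less RNA per cell cannot be told apart. The driven gene rpr was at 70.3 FPKM in the Control group and 55.2 FPKM in the Ablated group, 24 h after its induction ended.

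The Vha genes fell into a set of 15 genes expressed in these cells and a set of 4 genes near the floor, with a wide gap between them. The lowest of the expressed genes, VhaM9.7-1, had a mean of 14.0 FPKM, and the highest of the others, Vha68-1, had a mean of 0.40 FPKM. The expressed set holds at least 1 gene for each of the 13 subunits A to H, a, c, c'', d and e. Their median level was 74.0 FPKM in Control cells and 63.6 FPKM in Ablated cells, against 17.4 and 17.1 FPKM for all expressed genes. In the Control group they stood between percentile 49.5 and percentile 94.2 of the expressed genes.

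**Figure D1:**
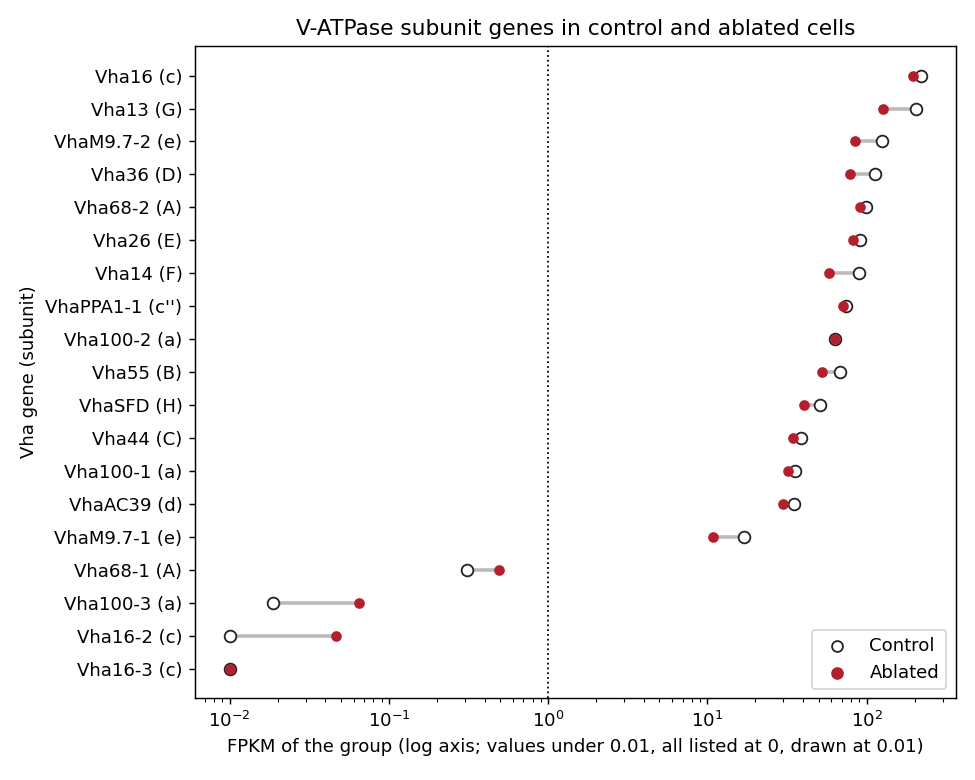
FPKM of the 19 Vha genes in the Control group (open circles) and the Ablated group (filled circles) on a log axis, with the subunit in brackets and a dotted line at 1 FPKM. The 15 expressed genes have means from 14.0 to 207 FPKM, and the other 4 genes stay under 1 FPKM in both groups.

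Of the 15 expressed genes, 14 had a lower FPKM in the Ablated group, where 53% of all expressed genes and 66.6% of the 4278 genes in the same FPKM range were lower. Their log2 fold changes ran from -0.68 to 0.01 with a median of -0.24. The genes in the same FPKM range had a median of -0.17. A difference of at least 1.5-fold downward was seen for 3 of the 15, Vha13, Vha14 and VhaM9.7-1, against 9.32% of all expressed genes and 10.5% of genes in the same FPKM range. None was higher by 1.5-fold, against 14.8% and 5.84%. The threshold of the study, a log2 fold change of 1.3, was reached by none of the 15 in either direction, against 1.95% of all expressed genes downward and 4.28% upward.

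These directions depend on how the groups were scaled. The Control values of the whole table added up to 1081834 FPKM and the Ablated values to 889990 FPKM. Scaling both groups to the same sum moved every log2 fold change up by 0.28, and the median of all expressed genes became 0.24. Under that scaling 7 Vha genes were lower and 8 were higher, where 28.7% of all expressed genes were lower. The 7 were Vha13, VhaM9.7-1, Vha14, VhaM9.7-2, Vha36, Vha55 and VhaSFD. The order of the genes among themselves does not change with the scaling. Relative to genes of similar FPKM, 8 of the 15 were lower and 7 higher, with a median difference of -0.09. By construction this step leaves 4200 of all expressed genes lower and 4200 higher.

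In the headpiece of V1, which binds and splits ATP, the A subunit and the B subunit had unlike changes. The catalytic A subunit is encoded by Vha68-2 (chromosome 2L, 12974322 to 12978615, build 5 of the genome), at 98.5 FPKM in Control cells and 90.6 FPKM in Ablated cells, with -0.12 as its log2 fold change. Vha55 (chromosome 3R, 8449484 to 8453551) encodes the B subunit, which alternates with A in the ring. It was at 67.8 and 52.5 FPKM, a log2 fold change of -0.37. The ratio of Vha68-2 to Vha55 was thus 1.45 in Control cells and 1.72 in Ablated cells. Both subunits are present in equal number in the pump, but these are RNA values and do not measure the number of subunits.

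The central stalk, which turns inside the headpiece, is made of subunits D and F, and both had larger differences. Vha36, for subunit D (chromosome 2R, 11428922 to 11430003), was at 113 FPKM in the Control group and 78.2 FPKM in the Ablated group, 1.44-fold lower. Vha14, for subunit F (chromosome 2R, 11566931 to 11567585), was at 89.1 and 57.8 FPKM, 1.54-fold lower. The ratio of Vha14 to Vha36 was 0.79 and 0.74.

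The peripheral stalks hold the headpiece still and are built from subunits E and G, which pair with each other. Vha13, for subunit G (chromosome 3R, 15468980 to 15470126), had the largest fold difference of the 15 expressed Vha genes, 204 FPKM in Control cells and 128 FPKM in Ablated cells, 1.60-fold lower and a log2 fold change of -0.68. Relative to genes of similar FPKM the largest was that of VhaM9.7-1 with -0.63, against -0.32 for Vha13. Its partner Vha26, for subunit E (chromosome 3R, 1417453 to 1420429), was at 91.1 and 82.2 FPKM, a log2 fold change of -0.15. The ratio of Vha13 to Vha26 was 2.24 in Control cells and 1.55 in Ablated cells. The genes of this pair differed more in their change than the genes of the central stalk. They also differed more in exon length, with 943 and 2926 bases for Vha13 and Vha26. Vha36 and Vha14 have 1064 and 659 bases, and the trend with length is given below.

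Subunits C and H join the stalks to the membrane sector and take part in the regulated assembly of the pump. Vha44, for subunit C, was at 38.9 and 34.7 FPKM, a log2 fold change of -0.17. VhaSFD, for subunit H, was at 51.3 and 40.4 FPKM, a log2 fold change of -0.34. Both lie in loci that the table gives to other genes as well, 2 for Vha44 and 13 for VhaSFD, among them grp with 202 and 148 FPKM and Cyt-c-p with 159 and 164 FPKM. The use of strand in assigning reads is not given in the sources used here, so values in shared loci are uncertain. Of the 15 expressed genes, 10 have a locus of their own.

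In the membrane sector the subunits of the proton path had small differences on the authors' scale. Subunit a, which holds the entry and exit channels for protons and directs the pump to its compartment, had 2 expressed genes among the Vha genes. Vha100-2 was at 63.2 FPKM in the Control group and 63.6 FPKM in the Ablated group, the only expressed Vha gene that was not lower with the table as scaled by the authors (8 were higher at equal sums), and Vha100-1 was at 35.5 and 32.1 FPKM. Their log2 fold changes were 0.01 and -0.14, and relative to genes of similar FPKM they were 0.26 and 0.01. Both share their locus, Vha100-2 with koko (79.8 and 55.1 FPKM) and CG12333, and Vha100-1 with CG14512.

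The proteolipids c and c'' form the ring that carries protons. Vha16, for subunit c (chromosome 2R, 2512747 to 2520633), had the highest level of the family with 219 and 194 FPKM, a log2 fold change of -0.17. VhaPPA1-1, for subunit c'' (chromosome 3R, 10728048 to 10729796), was at 74.0 and 71.3 FPKM, a log2 fold change of -0.05. Relative to genes of similar FPKM, Vha16 was at 0.19 and VhaPPA1-1 at 0.20. VhaAC39, for subunit d, which links the ring to the central stalk (chromosome X, 3774773 to 3777004), was at 35.2 and 29.9 FPKM, a log2 fold change of -0.24.

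The 2 genes for the small membrane subunit e had the lowest log2 fold changes in Vo. Both have short transcripts, and the trend with length is given below. With FPKM and exon length taken off as described there, VhaM9.7-2 was at -0.17 and VhaM9.7-1 at -0.45. VhaM9.7-2 (chromosome 3L, 21532946 to 21533798) was at 125 FPKM in the Control group and 84.0 FPKM in the Ablated group, and VhaM9.7-1 was at 17.1 and 10.9 FPKM. They were 1.49-fold and 1.57-fold lower, so VhaM9.7-2 lies just outside the 1.5-fold limit and Vha14, at 1.54-fold, just inside it. The ratio of VhaM9.7-2 to VhaM9.7-1 was 7.33 and 7.69. The locus of VhaM9.7-1 also holds tipE and 4 other genes, all under 1 FPKM in both groups.

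Summed over the expressed genes, V1 had 754 FPKM in the Control group and 564 FPKM in the Ablated group, and Vo had 570 and 486 FPKM. The median log2 fold change was -0.35 for the 8 V1 genes and -0.17 for the 7 Vo genes. All 8 V1 genes and 6 of the 7 Vo genes were lower as the table is scaled, where 53% of all expressed genes and 66.6% of those in the same FPKM range were lower. Relative to genes of similar FPKM, 5 V1 genes were lower and 3 higher, and 3 Vo genes were lower and 4 higher. Of all expressed genes, 4200 were lower and 4200 higher on that scale, by construction. With both groups scaled to the same sum, the medians of both sectors move up by the shift of 0.28 given above. The difference between the sectors was not tested.

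**Figure D2:**
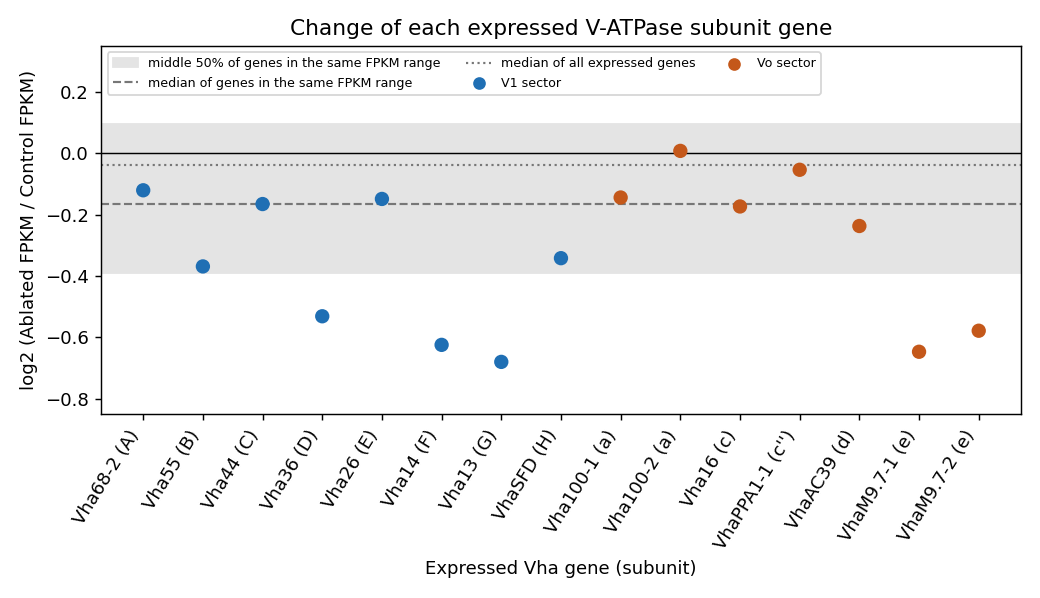
Log2 ratio of Ablated to Control FPKM for the 15 expressed Vha genes, ordered by subunit and colored by sector, with the median (dashed) and middle 50% (grey band) of the 4278 genes in the same FPKM range and the median of all expressed genes (dotted). Vha36, Vha14, Vha13, VhaM9.7-1 and VhaM9.7-2 lie below the band, and the other 10 genes lie inside it.

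The 4 Vha genes under 1 FPKM are further genes for subunits A, a and c, and their use in other tissues was not examined. Vha68-1, a second gene for the catalytic subunit A, was at 0.31 FPKM in the Control group and 0.49 FPKM in the Ablated group. Vha100-3, for subunit a, was at 0.019 and 0.064 FPKM, and it shares its locus with sano. Vha16-2 and Vha16-3, which lie side by side on chromosome 3L and encode further c proteolipids, were listed at 0 in the Control group, with 0.046 FPKM for Vha16-2 and 0 for Vha16-3 in the Ablated group. Both genes with a value above 0 in each group were higher in the Ablated group, where 79.9% of the 3307 genes of the table at this level were higher.

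A further 15 genes of the table bear current V-ATPase names under older symbols, among them paralogs and accessory subunits, and 6 of them had a mean of at least 1 FPKM. VhaAC45RP (listed as CG31030, chromosome 3R, 25990414 to 25992152), a relative of the accessory subunit gene VhaAC45 known for a role in neurons, differed most of the V-ATPase genes above 1 FPKM. It was at 1.91 FPKM in the Control group and 10.7 FPKM in the Ablated group, 5.59-fold higher and a log2 fold change of 2.48, rank 67 among the expressed genes by log2 fold change. VhaAC45 itself (listed as CG8029), which guides the pump through the secretory pathway, was at 57.3 and 56.8 FPKM, a log2 fold change of -0.01. The share of VhaAC45RP in the summed FPKM of the pair was 3.23% in Control cells and 15.9% in Ablated cells. ATP6AP2 (listed as CG8444), the other accessory subunit and also known as the prorenin receptor, was at 91.6 and 68.7 FPKM, a log2 fold change of -0.42.

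The 3 remaining paralogs above 1 FPKM were all higher in the Ablated group, and each lies next to a gene of higher FPKM for the same subunit. Vha68-3 (listed as CG5075) lies between Vha68-2 and Vha68-1 on chromosome 2L and was at 2.14 and 2.48 FPKM, against 98.5 and 90.6 FPKM for its neighbor Vha68-2. Vha100-4 (listed as CG7678), beside Vha100-2 on chromosome 3R, was at 6.73 and 8.56 FPKM. VhaPPA1-2 (listed as CG7026), beside VhaPPA1-1, was at 1.17 and 1.76 FPKM. Their log2 fold changes were 0.21, 0.35 and 0.59. Genes at low FPKM were generally higher in the Ablated group, with a median log2 fold change of 0.43 over the 1681 expressed genes with means up to 4.29 FPKM and 0.12 over the next 1680.

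Over the 34 V-ATPase genes of both lists, 13 were under 1 FPKM, of which 8 had a value above 0 in both groups. All 8 were higher in the Ablated group and 4 were higher by at least 1.5-fold, against 79.9% and 61.1% of the genes at this level. Of the other 5, 3 were listed at 0 in the Control group only and 2 in both groups. The authors' software divides reads that fit several places among copies, so low values of paralogs are uncertain.

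In each subunit with several genes, the gene with the most FPKM was the same in both groups. Vha68-2 held 97.6% of the summed FPKM of subunit A in Control cells and 96.8% in Ablated cells, and Vha16 held 99.7% and 99.6% for subunit c. Subunit a was the most divided, with 60.0% and 60.9% from Vha100-2, 33.6% and 30.8% from Vha100-1 and 6.39% and 8.21% from Vha100-4. For subunit e, VhaM9.7-2 held 87.8% and 88.0%.

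**Figure D3:**
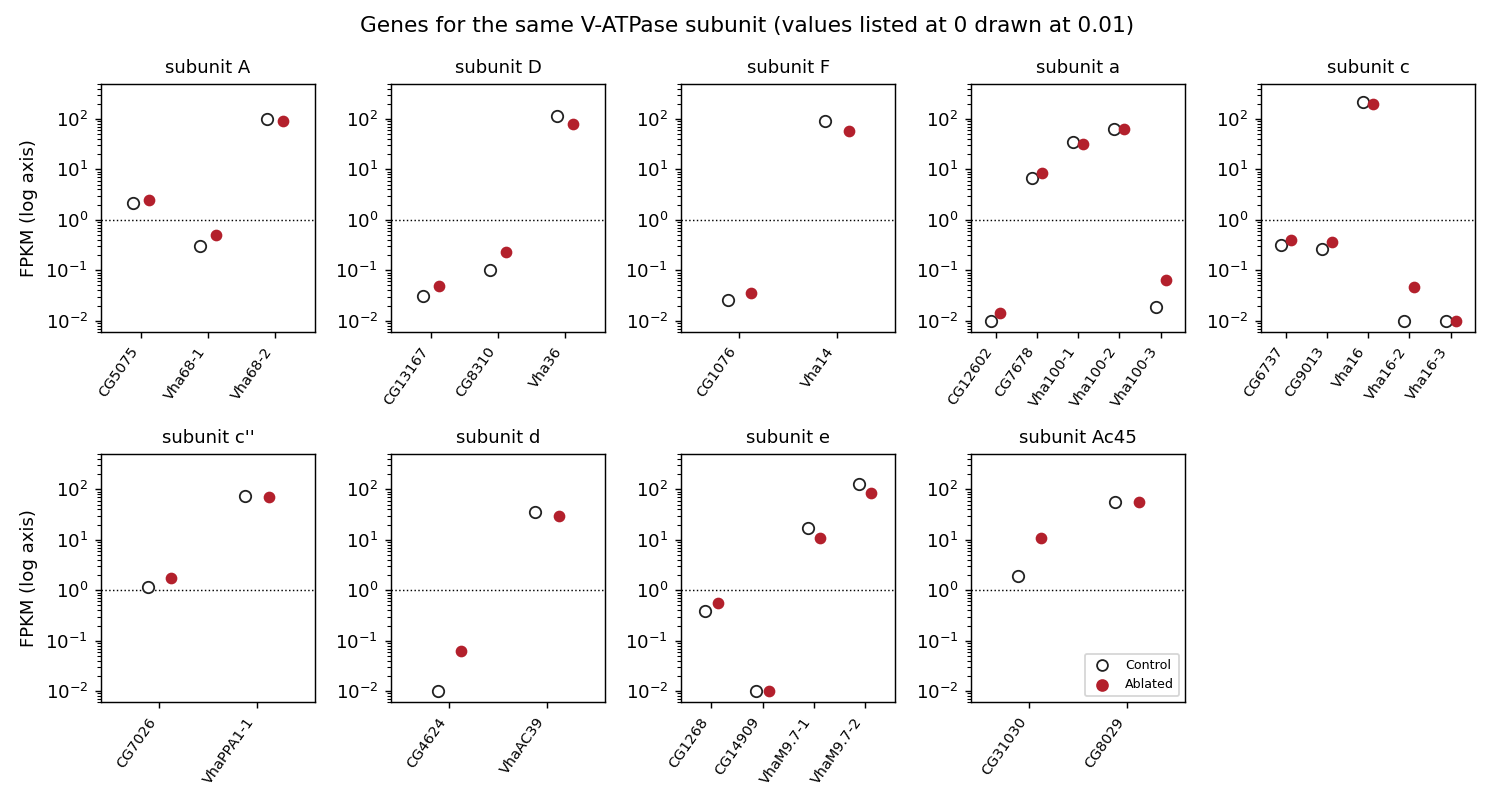
FPKM of the genes for each V-ATPase subunit that has more than 1 gene, in the Control group (open circles) and the Ablated group (filled circles), on log axes with a dotted line at 1 FPKM. The same gene leads each subunit in both groups, and within Ac45 CG31030 was at 1.91 FPKM in Control and 10.7 FPKM in Ablated cells.

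The size of the change followed transcript length within the family. The 6 expressed Vha genes with an exon length under 1500 bases (longest transcript in annotation BDGP6.54) had a median log2 fold change of -0.60, and the 9 longer genes had a median of -0.17. All 3 genes past 1.5-fold were in the short class. The exception was VhaPPA1-1, with 1352 bases and a log2 fold change of -0.05. Across the 15 genes, the log2 fold change and exon length had a Spearman correlation of 0.73 and, with length on a log scale, a Pearson correlation of 0.80. The 15 values come from the same pair of group values and are not independent, and the limit of 1500 bases was chosen after the values were seen.

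The table as a whole had the same trend. Over the 4198 genes in the same FPKM range with a known length, the Spearman correlation was 0.54, and the median log2 fold change was -0.37 under 1500 bases and -0.06 above. Of the short genes in this range, 19.1% were lower by at least 1.5-fold, and of the long genes 6.48%. Medians of genes with similar FPKM and then with similar exon length were taken off, a step added with the data in view. After it the Vha genes had a median of -0.07, with 9 lower and 6 higher, and none was lower by 1.5-fold. By construction it leaves 4120 of all expressed genes of known length lower and 4120 higher. Among the Vha genes the largest remaining differences were those of VhaM9.7-1 with -0.45 and VhaPPA1-1 with 0.31. The part of transcript length in the values was not tested beyond this.

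**Figure D4:**
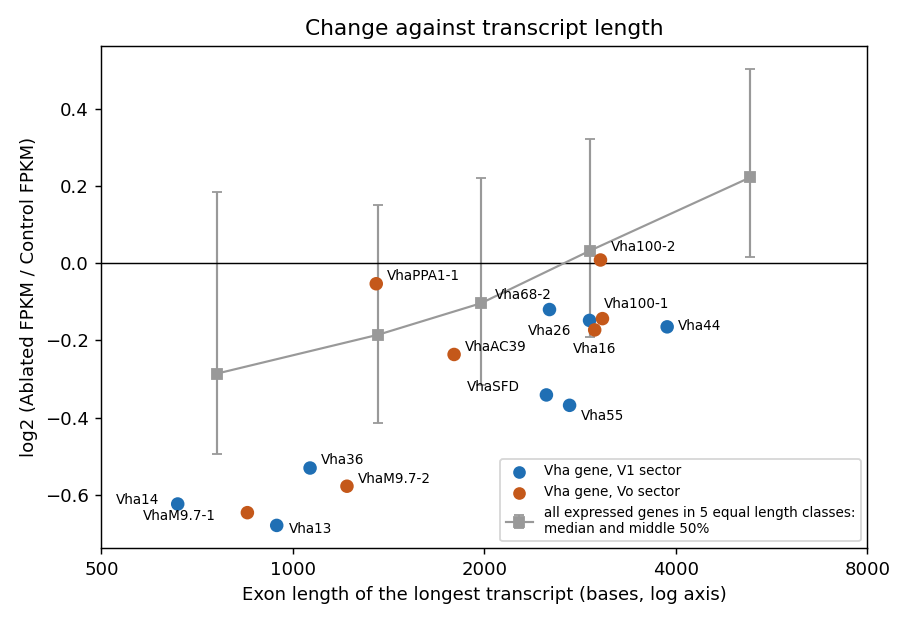
Log2 ratio of Ablated to Control FPKM against exon length on a log axis for the 15 expressed Vha genes, colored by sector, with the median and middle 50% of all expressed genes in 5 length classes (grey squares and bars). The 5 Vha genes under -0.5 are all shorter than 1500 bases, and the medians of all genes go from -0.29 in the shortest class to 0.22 in the longest.

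Genes that act with the pump were read in the same way, from lists chosen with earlier results of these data known. Mitf, a transcription factor that drives V-ATPase and lysosomal genes in flies, was at 25.1 FPKM in the Control group and 24.3 FPKM in the Ablated group. The rabconnectin genes Rbcn-3A (listed as CG3585) and Rbcn-3B (listed as CG17766), whose products promote assembly of the pump, were at 11.0 and 12.4 FPKM and at 3.49 and 4.0 FPKM. None of these 3 genes differed by 1.5-fold.

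Among 24 lysosome and endosome genes 20 were expressed, with a median log2 fold change of -0.23. The Vha genes had -0.24, and the genes in the FPKM range of the Vha genes had -0.17. Of the 20 genes 13 were lower and 7 higher, both as the table is scaled and relative to genes of similar FPKM. As the table is scaled, 53% of all expressed genes and 66.6% of those in the Vha range were lower. Relative to genes of similar FPKM, 4200 of all expressed genes were lower and 4200 higher, by construction. Hexo1, a lysosomal hexosaminidase, was at 135 and 75.9 FPKM, and Cln7 (listed as CG8596), a lysosomal membrane protein, at 41.8 and 25.9 FPKM, log2 fold changes of -0.83 and -0.69, and these were the 2 of 20 past 1.5-fold, a share near the 9.32% of all expressed genes that were lower by as much. The lysosomal efflux carrier spin was at 62.2 and 81.0 FPKM, a log2 fold change of 0.38, and Gba1b (listed as CG31414), a glucocerebrosidase, at 2.04 and 2.47 FPKM.

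The mitochondrial ATP synthase is a related rotary enzyme that runs in the other direction, making ATP from a proton gradient. Of its 16 genes 15 were expressed, with a median log2 fold change of -0.60. Of these 14 were lower, against 53% of all expressed genes, and 8 were lower by at least 1.5-fold, against 9.32%. Those shares cover all levels, and the 1681 expressed genes with means from 56.2 FPKM up had a median of -0.31. Relative to genes of similar FPKM, 14 were lower and 1 higher, against 4200 and 4200 of all expressed genes. The share lower by 1.5-fold at the levels of these genes was not counted. The largest differences were those of sun (195 and 121 FPKM) and ATPsyn-gamma (498 and 310 FPKM), with log2 fold changes of -0.69 and -0.68. ATPsynepsilonL (listed as CG31477) was at 29.5 and 31.7 FPKM, and ATPsynbetaL (listed as CG5389) at 3.54 and 3.23 FPKM. Relative to genes of similar FPKM the median was -0.29 for the ATP synthase and -0.09 for the Vha genes, and with exon length taken off as well it was -0.15 over the 14 ATP synthase genes of known length and -0.07 for the Vha genes. The difference between the 2 lists was not tested.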

How the data were processed

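RNA of sorted GFP-labeled wing disc cells was sequenced from 3 Control and 3 Ablated replicates with a stranded kit. The authors trimmed the reads, aligned them with TopHat2 (version 0.6 in the submitters' notes) to build 5 of the Drosophila melanogaster genome and its gene models, and estimated FPKM with Cufflinks (version 0.0.7), corrected for sequence bias and multiply mapped reads. The deposited FPKM are 1 value per group, made by Cuffdiff over the replicates with geometric normalization of the libraries. The table also holds the authors' fold changes, test statistics, p-values and q-values for this comparison, which were not used. Without counts or replicate values, no interval, detection floor, spread or test could be given.

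Log2 ratios (Ablated over Control FPKM) were computed with no pseudocount. Genes whose 2 values averaged 1 FPKM or more were called expressed, and a gene was counted as different past 1.5-fold. Genes of similar FPKM or exon length were taken from 20 bins of equal size. Loci are those of build 5, counted from 1, and a locus can span several genes. Current names came from the RefSeq table of release 6 for 13963 of 14239 symbols. Vha14 and VhaM9.7-1 are each a synonym of 2 current genes, and were assigned to the one with no entry of its own (Vha14-1 and VhaM9.7-c). Exon lengths (BDGP6.54) were found for 98.2% of expressed genes. All Vha genes expressed are named with values, and of the other lists the 2 largest rises and falls (log2 of FPKM plus 0.1). The members and lists were chosen with earlier results of these data known, and the list of other V-ATPase genes was completed by current symbol. The calculations were tested on simulated data. Tools were Python 3.11.15, pandas 2.3.3, numpy 2.4.6, matplotlib 3.10.9 and scipy 1.17.1.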

Additional observations from a re-analysis of the deposited data

How the results depend on the processing

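The values rest on 1 pooled FPKM per group, so the alternatives show only how arithmetic choices move them. The median log2 fold change of the expressed Vha genes, -0.24, was 0.045 with both groups scaled to the same FPKM sum, -0.087 relative to genes of similar FPKM, and -0.075 with exon length added, a step chosen with the data in view. Under these 3 settings the number of lower Vha genes went from 14 to 7, 8 and 9. Of all expressed genes, 28.7% were lower at equal sums. By construction 4200 were lower and 4200 higher relative to similar FPKM, and 4120 and 4120 with exon length added. The number of Vha genes lower by at least 1.5-fold went from 3 to 0, 1 and 0. The shares of all expressed genes lower by as much under these settings were not counted. A limit of 0.32 on the log2 scale gave 7 lower genes, and limits of 2-fold and of 1.3 on the log2 scale gave 0. The lower quartile of the log2 fold changes was -0.326 for all expressed genes and -0.389 for genes in the same FPKM range. Many genes of both sets therefore pass 0.32 downward. At 1.3 the share of all expressed genes was 1.95%, and the shares at 0.32 and at 2-fold were not counted. No expressed Vha gene was higher by 1.5-fold. With a mean FPKM of at least 0.1, 1 Vha gene was, and with no filter on low values 2 were, Vha68-1 and Vha100-3. Both are under 1 FPKM, where 61.1% of the 3307 genes above 0 in both groups were higher by as much. Other settings were pseudocounts of 0.1 and 1, a mean FPKM of at least 5, and centring on the median of all expressed genes. A further setting left out genes in shared loci. Under these settings the medians stayed between -0.30 and -0.20 and each count within 1.5 times. With shared loci left out, 10 expressed Vha genes remained and all 10 were lower. Vha100-2 was among those left out, and the share of all expressed genes under this setting was not counted. No paired analysis was possible because the table holds 1 value per group and no replicate values. No replicate could be left out for the same reason.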
